A study of Drosophila melanogaster with 18 samples.

Results

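The pericentric ends of 4 Drosophila melanogaster chromosome arms were followed in Targeted DamID libraries of the eye-antennal disc, the larval precursor of the adult eye and antenna. Members were taken by position in the dm6 genome build, as every row of the count table that starts on 2L at or beyond 22 Mb, on 3L at or beyond 23 Mb, on 3R up to 4 Mb and on X at or beyond 22.6 Mb. This gave 71056 of the 767321 counted GATC ends, of which 9246 lay on 2L, 31434 on 3L, 24840 on 3R and 5536 on X. A GATC site has an end on each strand, so the members were 35528 sites over 11.6 Mb, and both ends of a site share its methylation. The remaining 521674 ends of the same arms were the comparison for every level. Chromosome 4, a small chromosome largely packed as heterochromatin that the rule leaves out, gave 7188 ends.

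Pericentric heterochromatin is the compact, repeat-rich chromatin beside the centromeres. It carries methylated histone H3 lysine 9 and Heterochromatin Protein 1, holds few genes, and is less accessible than euchromatin. The genes that do lie there are often very long, with introns full of transposon remnants, and some of them, such as light, are known to need the heterochromatic setting for full activity. In DamID, the bacterial adenine methyltransferase Dam, expressed by itself or joined to a chromatin protein, methylates the GATC sites it reaches. Only methylated sites are cut, amplified and read, and so the reads of unfused Dam follow how open the chromatin is.

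The libraries were Dam-Sd, Yki-Dam and Dam-Jra, with Dam alone in Sets 1, 2 and 3 as their controls, 3 libraries in each of these 6 groups. Sd (Scalloped) is the DNA-binding TEAD protein of the Hippo pathway, Yki (Yorkie) its coactivator, and Jra the Jun subunit of AP-1. All flies, controls included, carried Eyeless-Gal4 with Gal80ts, so that UAS-Dam, UAS-Dam-Sd, UAS-Yki-Dam or UAS-Dam-Jra was switched on by heat in the cells where Eyeless-Gal4 acts. Egg laying took place at 25 °C, 4 days at 18 °C kept the transgenes off, and 24 hours at 29 °C preceded dissection of discs from larvae early in the last instar (early L3). Whether replicates came from separate crosses or pooled animals is not given in the sources used here, so the spread between libraries, which every p-value here measures, may be technical. In bulk libraries, fewer methylating cells and less methylation per cell cannot be told apart.

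Libraries held 21.4 to 41.0 M (1e6) counted reads, and the pericentric ends took 0.372 to 1.07% of them in Dam-Sd, 0.623 to 0.958% in Yki-Dam, 0.450 to 0.490% in Dam-Jra and 1.18 to 2.86% in Dam alone. The Wilson 95% interval of these shares ran from 0.370 to 0.374% in the lowest library and from 2.85 to 2.86% in the highest, which covers counting error only, since PCR reads without molecular identifiers are not independent molecules. Of 9 gene markers of the eye-antennal disc, all 9 were called higher in each fusion than in its Dam, and 7 had a Dam level above the median gene window. Of 11 markers of other cells (fat body, muscle, haemocytes, germline, glia and neurons), 4 were called higher in each fusion, while the lower calls numbered 4 for Dam-Sd, 4 for Yki-Dam and 3 for Dam-Jra. Over all gene windows 26.1, 22 and 32.6% were called higher and 30.3, 20.3 and 36.3% lower. Of the 11 markers of other cells, 6 also had a Dam level above the median gene window. The part of other cells in the results was not tested.

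Pericentric DNA had no fewer sites to methylate per kb than the arms but far fewer genes. It held 6.14 ends per kb, against 5.45 in the rest of the same arms, with a median gap between sites of 208 and 194 bp inside and outside. Only 103 protein-coding genes of the RefSeq annotation lay wholly inside, or 8.91 per Mb, against 10888 in the rest, or 114 per Mb. Their median length was 6389 bp inside and 2161 bp in the rest. The 3R end was the poorest, with 8 genes of a median length of 26675 bp in 4 Mb, and 72.5% of its ends lay in or beside them. No read was found in any of the 18 libraries at 36.6% of the pericentric ends, against 12.9% of the rest, and this share was highest on 3R (41.5%) and lowest on 2L (31.5%). How reads that match several places were counted is not given in the sources used here, and its part in these shares was not tested.

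Dam alone gave far fewer reads per pericentric end than per end of the arms. The level used here is the log2 ratio of reads per end inside the intervals to reads per end in the rest of the same arms of the same library, so library size does not enter. In Set 1 the 3 Dam libraries stood at −3.08, −2.30 and −2.52, in Set 2 at −2.62, −1.87 and −2.15, and in Set 3 at −3.17, −3.14 and −3.12. All 9 libraries lay below 0, and their mean of −2.66 ± 0.49 (SD, n = 9) put the pericentric ends 6.34-fold below the rest (exact sign-flip permutation test, two-sided, p = 0.0039, the smallest that 9 libraries allow). Over ends with a read in any library the mean was −2.21, and the part of multi-mapping reads in the shortfall was not tested. Set 2 stood highest (mean −2.21 ± 0.38, n = 3) and Set 3 lowest and tightest (−3.15 ± 0.02, n = 3) of the Dam sets.

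All 3 fusions stood lower still, so that pericentric ends had a smaller share of reads with a fused protein than with Dam alone in every comparison. Dam-Sd libraries stood at −4.86, −4.03 and −3.32, against −3.08, −2.30 and −2.52 in Dam of Set 1. The groups did not overlap, but Dam-Sd replicate 3, at −3.32, came close to Dam replicate 1, at −3.08. The mean difference was −1.44 ± 0.50 (SE), a 2.71-fold lower relative level, with an exact two-sided permutation p of 0.10, the smallest that 3 against 3 allows. Yki-Dam libraries stood at −4.11, −3.49 and −3.54, against −2.62, −1.87 and −2.15 in Dam of Set 2. Again no library overlapped, and the difference was −1.50 ± 0.30, or 2.82-fold lower (exact permutation p = 0.10).

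Dam-Jra had the lowest mean, −4.53 ± 0.06 (SD, n = 3). Its libraries stood at −4.46, −4.54 and −4.59, against a lowest, median and highest value of −3.17, −2.62 and −1.87 in the 9 Dam libraries. Dam-Jra carries the label Set 1 in its titles while no fusion carries Set 3, so the 9 Dam libraries of all sets were its controls. The difference was −1.86 ± 0.17 (SE), a 3.64-fold lower level, with every Dam-Jra library below every Dam library (exact permutation p = 0.00455 over 220 splits, adjusted p = 0.0136 over the 3 fusions). Against Dam of Set 3 alone it was −1.38 and against Set 1 alone −1.89, both with exact permutation p = 0.10, the smallest those designs allow. Dam-Sd and Yki-Dam set against all 9 Dam libraries gave −1.41 (exact permutation p = 0.00455) and −1.04 (p = 0.00909). Tests against 9 Dam libraries treat the 3 sets as exchangeable, although their means differed (−2.63, −2.21 and −3.15 in Sets 1, 2 and 3). For Dam-Sd and Yki-Dam they also bring in Dam libraries of other sets.

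Dam level is itself unequal between the zones, so the rest of the arms was also weighted to the pericentric mix of Dam-level classes, an alternative added after the data had been seen, with classes taken from Dam libraries outside each comparison. The differences were then −0.73 for Dam-Sd (exact permutation p = 0.20), −1.05 for Yki-Dam (p = 0.10) and −1.30 for Dam-Jra against Set 3 (p = 0.10).

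**Figure D1:**
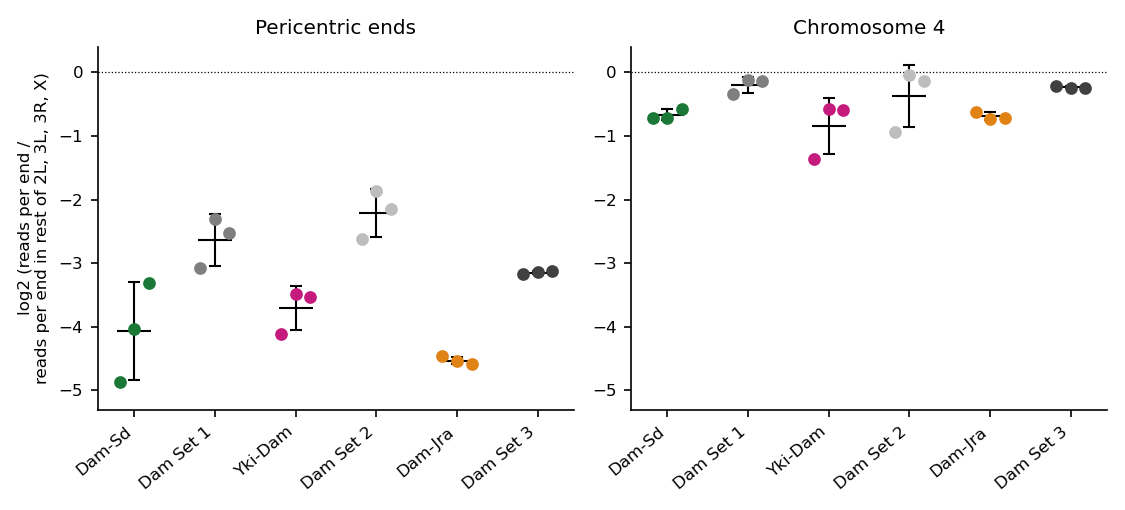
Log2 relative level of the pericentric ends (left) and of chromosome 4 (right) in each library, with points for replicates 1 to 3 from left to right and black bars for the group mean ± SD (n = 3). Pericentric ends lie between −4.86 and −3.32 in the 9 fusion libraries and between −3.17 and −1.87 in the 9 Dam libraries, while chromosome 4 stays at or above −1.36 in all 18.

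Equal replicate numbers gave the same picture. Dam-Sd minus Dam of the same number was −1.78, −1.73 and −0.80, and Yki-Dam minus Dam was −1.49, −1.62 and −1.39. Dam-Sd replicate 3 showed a smaller difference than the other two Dam-Sd libraries, and without it the Dam-Sd difference was −1.81, while without replicate 1 it was −1.04 (exact permutation p = 0.20).

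Chromosome 4 was nearer to the rest of the genome. It stood at −0.72, −0.71 and −0.57 in Dam-Sd and at −0.34, −0.12 and −0.13 in Dam of Set 1. It stood at −1.36, −0.58 and −0.59 in Yki-Dam, against −0.94, −0.05 and −0.13 in Dam of Set 2, where replicate 1 of both groups was low. In Dam-Jra it stood at −0.62, −0.73 and −0.72, against −0.94 to −0.05 in the 9 Dam libraries. The fusion minus Dam difference was −0.47 for Dam-Sd, −0.47 for Yki-Dam and −0.42 for Dam-Jra on chromosome 4, and the pericentric difference exceeded it by −0.97 (exact permutation p = 0.10), −1.02 (p = 0.10) and −1.44 (p = 0.00455). With 3 against 3 libraries 0.10 is the smallest p, so the excess of Dam-Sd and Yki-Dam could not pass.

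The share of pericentric ends with any read was separate from Dam in Dam-Jra and overlapped Dam in the other two fusions, with no test made. A read was found at 14.3, 28.8 and 35.2% of the pericentric ends in Dam-Sd, against 34.8, 42.2 and 42.2% in Dam of Set 1, and replicate 3 of Dam-Sd lay above the lowest Dam library. The shares were 29.2, 36.7 and 39.1% in Yki-Dam, against 33.2, 41.4 and 42.0% in Dam of Set 2, where 2 Yki-Dam libraries lay above the lowest Dam library. In Dam-Jra they were 16.9, 16.9 and 15.1%, against 28.7 to 42.2% in the 9 Dam libraries, with no overlap. The separation of Dam-Jra was not confined to the pericentric ends. In the rest of the same arms the share was 56.8 to 58.7% in Dam-Jra, against 61.8 to 70.7% in the 9 Dam libraries. Dam-Sd was also separate there, at no more than 62.1%, against at least 68.4% in Dam of Set 1. Yki-Dam overlapped Dam of Set 2 there, with means of 65.4 and 63.9%. Read totals were 34.0 to 36.8 in units of 1e6 reads in Dam-Jra, within the 21.4 to 39.8 of the Dam libraries. The reads of the fusions were also more concentrated over the genome: the 1% of all ends with the most reads took 41.7 to 51.6% of reads in the fusion libraries and 16.9 to 34.5% in the Dam libraries. With that 1% of ends, taken over all libraries, left out, the relative level differed from Dam by −0.99 for Dam-Sd (exact permutation p = 0.20), −1.23 for Yki-Dam (p = 0.10) and −1.69 for Dam-Jra (p = 0.00455).

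The 4 ends differed in depth of the shortfall. In Dam alone, X was least low (mean −1.48 over 9 libraries), followed by 2L (−1.81), 3L (−2.80) and 3R (−3.99), and the order X, 2L, 3L, 3R held in the mean of every group. In Dam-Jra the X end stood at −2.31, −2.39 and −2.44, 2L at −3.21, −3.29 and −3.30, 3L at −5.08, −5.15 and −5.21, and 3R at −6.68, −6.68 and −6.83. On 3R the reads per end in Dam-Jra were thus 102- to 113-fold below the rest of the arm.

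The fusion minus Dam difference followed the same split. For Dam-Jra it was −0.90 on X, −1.46 on 2L, −2.34 on 3L and −2.74 on 3R, each with an exact permutation p of 0.00455 (0.0136 adjusted over the 12 arm and fusion values). The Dam-Jra differences of X and of 2L were each smaller in size than those of 3L and 3R, and that of X was smaller than that of 2L, with adjusted exact permutation p between 0.0205 and 0.0491 over 18 pairs. The pair 3L and 3R did not pass (adjusted p = 0.129). The Dam sets differed among themselves, and against each set alone, an alternative added after the data had been seen, Dam-Jra had −1.12 to −0.77 on X, −1.63 to −1.25 on 2L, −2.85 to −1.69 on 3L and −3.66 to −1.95 on 3R. The value nearest to 0 came from Set 3 on every arm, without overlap of libraries (exact permutation p = 0.10 for each arm and set, the smallest that 3 against 3 allows). For Dam-Sd the differences were −0.82 on X, −1.28 on 2L, −1.88 on 3L and −1.39 on 3R, where Dam-Sd libraries at −6.98, −5.25 and −4.29 overlapped Dam of Set 1 at −4.83, −3.40 and −4.13. For Yki-Dam they were −0.99 on X, −1.36 on 2L, −1.74 on 3L and −1.54 on 3R, with no overlap on any arm. In these designs of 3 against 3 no pair of arms could pass.

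**Figure D2:**
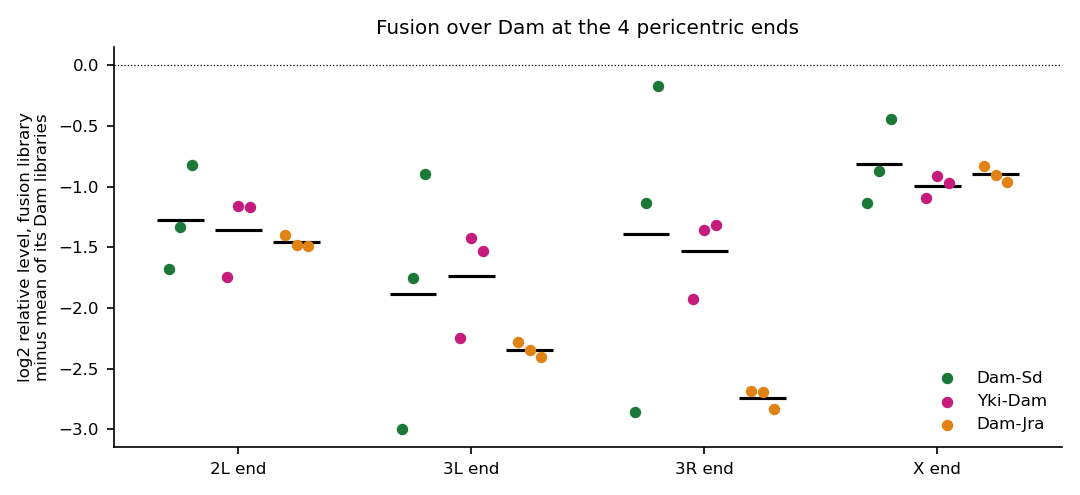
Log2 relative level of each fusion library minus the mean of its Dam libraries, at the ends of 2L, 3L, 3R and X, with points for replicates 1 to 3 from left to right and bars for means. Dam-Jra points lie close together and step down from −0.90 on X to −2.74 on 3R, while the 3 Dam-Sd points spread widely on 3L and 3R.

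The drop set in close to the edges of the intervals on 3 of the 4 arms. On 3L, the 500 kb just inside the edge stood at −3.97 in Dam-Sd, −3.42 in Yki-Dam, −4.47 in Dam-Jra and −2.07 in Dam (mean of 9 libraries), and the 500 kb just outside at −0.76, −0.67, −0.58 and −0.36 in the same order. On 3R the groups stood at −4.20, −3.57, −4.94 and −2.46 just inside and at −0.75, −0.67, −0.83 and −0.41 just outside, and on 2L at −2.35, −2.35, −2.50 and −1.41 just inside and at 0.01, 0.06, −0.08 and −0.23 just outside. On X the edge did not mark a step. The 500 kb just inside stood at −1.48, −1.47, −1.44 and −0.74, and the 500 kb just outside at −1.55, −1.50, −2.03 and −1.17. A low block lay further out on X, 0.5 to 1 Mb outside the edge, at −4.33, −4.01, −4.34 and −3.21, where 52.2% of ends held no read and 8.78% lay in gene windows of coding genes. With all edges set 500 kb further out, the fusion minus Dam difference was −0.75 for Dam-Sd, −0.86 for Yki-Dam and −0.95 for Dam-Jra (exact permutation p = 0.10, 0.10 and 0.00455).

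Inside the intervals 2L was lowest beyond 1.5 Mb, at −6.96 in Dam-Sd, −5.24 in Yki-Dam, −6.17 in Dam-Jra and −4.44 in Dam, a step of only 114 ends. On 3L it stayed between −2.07 and −4.31 in Dam over 11 steps of 500 kb. On 3R, beyond the first 500 kb, Dam lay between −4.20 and −5.11 and Dam-Jra between −6.44 and −8.27, with its highest step 2.5 to 3 Mb from the edge. That step lies wholly in the gene Myo81F. In the step farthest from the edge on 3R, Yki-Dam (−4.28) came close to Dam of Set 2 (−4.11), and Dam-Sd (−5.95) to Dam of Set 1 (−5.61), while Dam-Jra (−7.14) stayed lower than Dam of all sets (−5.11). This step was not uniform in bins of 100 kb. At 3.8 to 3.9 and 3.9 to 4 Mb Yki-Dam stood at −3.08 and −1.78, above Dam of Set 2 at −3.65 and −3.10. Dam-Sd stood at −5.32 and −3.56, against −5.22 and −4.24 in Dam of Set 1. The last bin held only 148 ends, and in the nearer bins both fusions stood below Dam.

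**Figure D3:**
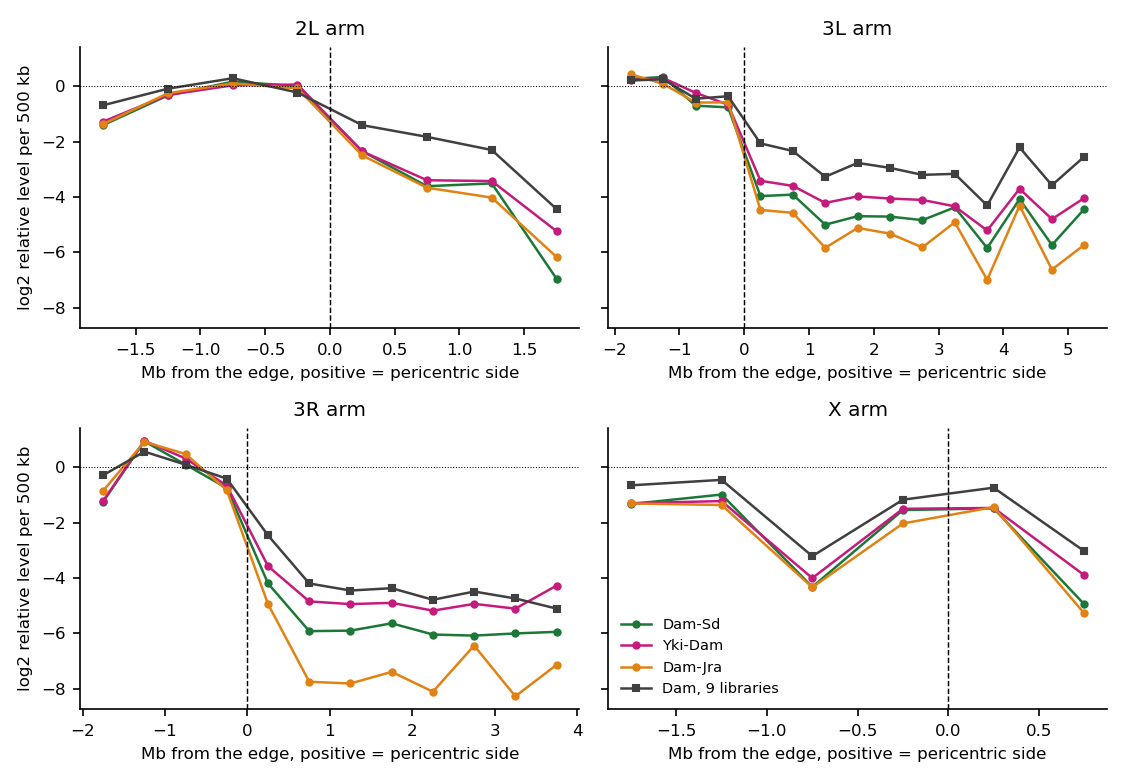
Log2 relative level in 500 kb steps along each arm, against the distance from the edge of the pericentric interval in Mb (dashed line, positive on the pericentric side), as group means for the 3 fusions (n = 3 each) and for Dam (n = 9). All lines drop inside the edge of 2L, 3L and 3R, with Dam-Jra lowest on 3L and 3R and Yki-Dam above the mean of the 9 Dam libraries in the last 3R step, and on X low steps lie on both sides of the edge.

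Ends in and beside short genes were the exception within the pericentric DNA. Only 4.46% of its ends lay inside or within 1 kb of a coding gene of up to 20 kb, against 54.4% of the rest, yet these ends took 20.6% of the pericentric reads. Their relative level, against ends of the same class in the rest, averaged −1.41 in Dam-Sd, against −0.47 in Dam of Set 1, −1.39 in Yki-Dam, against −0.58 in Dam of Set 2, and −1.22 in Dam-Jra, against −0.54 in the 9 Dam libraries. The differences were −0.93, −0.81 and −0.68 (exact permutation p = 0.10, 0.10 and 0.00455). Outside coding genes the differences were −2.13, −1.97 and −2.64, and in longer genes −1.65, −1.73 and −2.23, with the same p in each fusion. Dam-Jra, the lowest fusion between genes, thus had the smallest difference at short genes. No test was made of one class against another.

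Single ends were then tested with edgeR on the whole table. Only 18014 of the 71056 pericentric ends (25.4%) had enough reads to be tested, against 56.8% of the rest, and on 3R 17.1% did. Over all 394539 tested ends, 28.6% were called for Dam-Sd (13% higher, 15.6% lower), 16.1% for Yki-Dam (8.95% higher, 7.16% lower) and 41.8% for Dam-Jra (20.2% higher, 21.6% lower). Of the tested pericentric ends, 12% were called for Dam-Sd, 275 higher and 1892 lower; 7.76% for Yki-Dam, 117 higher and 1280 lower; and 39.8% for Dam-Jra, 517 higher and 6644 lower. Higher calls made up 12.7, 8.38 and 7.22% of the pericentric calls, against 47.5, 57.8 and 51.6% in the rest of the same arms. An end was tested when 3 of the 18 libraries, of any group, held enough reads, so pericentric ends could pass through Dam libraries alone. Ends nearly empty in a fusion can hardly be called higher there, and the part of the filter in these shares was not tested. Under library-size scaling alone the share of higher calls dropped in both zones, to 1.09, 1.05 and 1.60% inside and 11.2, 17.4 and 17.8% in the rest. With that scaling 33.5% of the tested pericentric ends were called for Dam-Sd, 34.0% for Yki-Dam and 69.7% for Dam-Jra, against 45.8, 33.4 and 59.9% of all tested ends.

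The counts of called ends moved with single libraries. Without Dam-Sd replicate 1, replicate 2 or Dam replicate 3 of Set 1 they were 1144, 1150 and 1304 for Dam-Sd. Without Yki-Dam replicate 2 or 3 or Dam replicate 2 of Set 2 they were 486, 594 and 880 for Yki-Dam. Without Dam-Jra replicate 1, 2 or 3 they were 3521, 3284 and 2899. In each of these fits lower calls outnumbered higher ones. In the Dam-Sd fits 5.45, 5.49 and 6.33% of the tested pericentric ends were called, against 16.4, 18.4 and 17.8% of all tested ends. Calls over all ends moved too, from 112734 in the main Dam-Sd fit to 69053, 77221 and 74024. Shares over all ends are not given here for the Yki-Dam and Dam-Jra fits.

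Genes inside the intervals were then tested as windows. A gene window is the span of a RefSeq gene with 1 kb on both sides, and 108 windows of genes wholly inside the intervals were among the 14090 tested, all adjusted together. Their median Dam level was 2.70 CPM per kb (reads per 1e6 after TMM scaling and per kb of the window, mean of 9 libraries), against 4.74 in the rest of the same arms, and 30 of the 108 lay above the median of all windows. Over all windows 56.4% were called for Dam-Sd (26.1% higher, 30.3% lower), 42.3% for Yki-Dam (22% higher, 20.3% lower) and 68.9% for Dam-Jra (32.6% higher, 36.3% lower). Among the pericentric windows Dam-Sd had 9 higher and 25 lower (31.5% called), Yki-Dam 4 higher and 16 lower (18.5%) and Dam-Jra 21 higher and 56 lower (71.3%), with median log2 fold changes of −0.24, −0.28 and −0.63, against −0.17, −0.13 and −0.10 over all windows. The called share was below that of all windows for Dam-Sd and Yki-Dam and close to it for Dam-Jra. Against Set 3 alone, where 50.3% of all windows were called, Dam-Jra had 12 higher and 45 lower.

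The Yki-Dam count depended on the model: with the replicate number as a block 8 windows were higher and 40 lower, against 28.2% higher and 27.5% lower (55.7% called) over all windows, and without Dam replicate 2 or 3 of Set 2 the calls numbered 13 and 12, while without Yki-Dam replicate 2 they numbered 33. Shares over all windows are not given here for these fits without single libraries. Fold changes of windows are TMM-scaled, that is, relative to the bulk of the genome. Under library-size scaling alone the median over all windows was −1.24 for Dam-Sd, −0.94 for Yki-Dam and −1.03 for Dam-Jra, and the higher and lower pericentric calls were 1 and 86, 1 and 86, and 5 and 83 in the same order. Over all windows that scaling called 79.7% for Dam-Sd (8.73% higher, 71% lower), 71.6% for Yki-Dam (7.75% higher, 63.8% lower) and 80.2% for Dam-Jra (12% higher, 68.2% lower), so the pericentric total, 80.6, 80.6 and 81.5%, was near the background for Dam-Sd and Dam-Jra.

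Long genes were low in Dam-Jra. Of the 25 pericentric windows of genes over 20 kb, 21 were lower and 2 higher in Dam-Jra, with a median of −1.69, and of 83 shorter ones 35 were lower and 19 higher, with a median of −0.35. In the rest of the same arms the long genes went the other way, with 250 lower and 441 higher of 792 and a median of 0.54. In Dam-Sd 7 long pericentric genes were lower and 3 higher, and in Yki-Dam 7 lower and 2 higher, with medians of −0.20 and −0.74, against 0.76 and 0.49 for the long genes of the rest. These lower calls are 28% in each fusion, against 30.3 and 20.3% over all windows and 10.4 and 21.6% of the long genes of the rest. The higher calls are 12 and 8%, against 26.1 and 22% over all windows and 57.8 and 49.6% of the long genes of the rest.

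**Figure D4:**
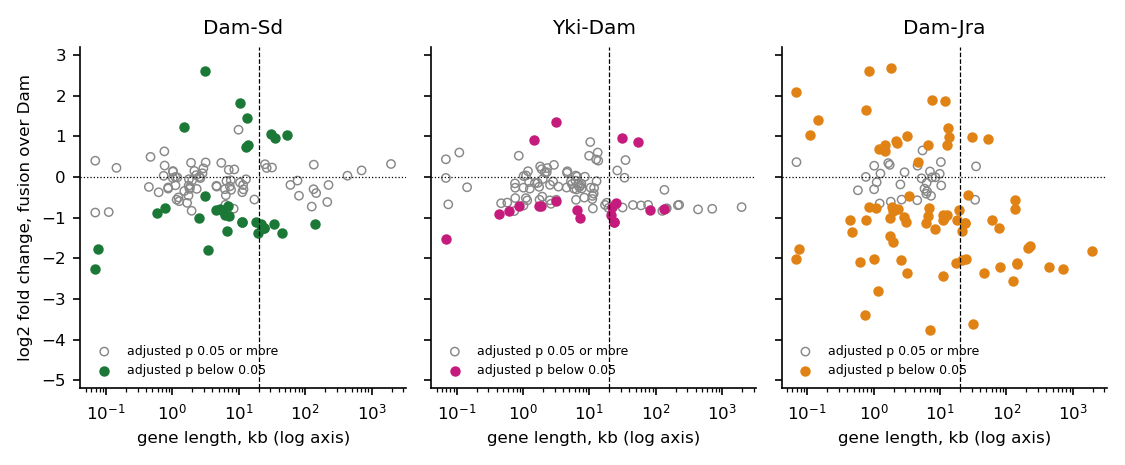
Log2 fold change over Dam of the 108 pericentric gene windows against gene length in kb on a log axis, for Dam-Sd, Yki-Dam and Dam-Jra from left to right, with filled points for windows called by edgeR and a dashed line at 20 kb. To the right of that line 21 of 25 windows are called lower in Dam-Jra, 7 in Dam-Sd and 7 in Yki-Dam. Over all windows 36.3, 30.3 and 20.3% were called lower in the same order.

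Of 27 textbook heterochromatic genes listed, 19 lay wholly inside the intervals with a tested window, 1 (nrm) crossed an edge, 2 lay outside and 5 were on another arm or chromosome. For Dam-Sd 1 rose, 6 fell and 12 did not pass; for Yki-Dam 1 rose, 1 fell and 17 did not pass; for Dam-Jra 3 rose, 13 fell and 3 did not pass. The medians were −0.22, −0.63 and −1.05. Over all windows 30.3, 20.3 and 36.3% were called lower, so the 6 lower calls of Dam-Sd were near the background, and the 1 of Yki-Dam below it. With the replicate number as a block, which pairs the libraries of Dam-Sd with Set 1 and of Yki-Dam with Set 2, 8 listed genes fell and 1 rose in Dam-Sd and 11 fell and 1 rose in Yki-Dam. The genes added were Parp1 (−0.86, adjusted p = 0.00265) and l(3)80Fg (−0.76, adjusted p = 0.00702) in Dam-Sd. In Yki-Dam they were AGO3, Dbp80, Myo81F, Parp1, Pzl, Snap25, l(3)80Fg, l(3)80Fj, lt and spok, with log2 values of −0.31 to −0.79 and adjusted p of 6.2e-05 to 0.0303. Over all windows the block fit of Yki-Dam called 28.2% higher and 27.5% lower, and the shares of the Dam-Sd block fit are not given here. The values below are without the block. The list mixes housekeeping genes with neuronal, germline and patterning genes, and they are taken here by function.

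Ribosomal protein genes were among the pericentric windows with the most reads per kb. RpL15 (3L:27267255-27268445), a component of the large ribosomal subunit, had 28.5, 33.2 and 19.5 CPM per kb in Dam-Sd, against 33.6, 30.1 and 18.0 in Dam of Set 1, and 13.1, 43.2 and 34.6 in Yki-Dam, against 19.5, 26.1 and 37.2 in Dam of Set 2. It had 55.1, 64.2 and 49.0 in Dam-Jra, against 18.0 to 57.9 (median 33.6) in the 9 Dam libraries. It was the highest in Dam of the 108 windows, at 36.6 CPM per kb. RpL15 passed only for Dam-Jra (log2 0.70 ± 0.25 SE, edgeR adjusted p = 0.0166), with overlapping libraries. The call was lost against Set 3 alone (0.03, adjusted p = 0.953) and without Dam-Jra replicate 1 (0.68) or 2 (0.56). Under library-size scaling alone its Dam-Jra value was −0.22.

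RpL5 (2L:22532279-22536884), another large-subunit gene, whose window shares ends with CG17490, had log2 values of −0.22, 0.11 and 0.28 for Dam-Sd, Yki-Dam and Dam-Jra and did not pass (adjusted p = 0.648, 0.837 and 0.415). Set1 (3L:25107594-25115180), which encodes a histone H3 lysine 4 methyltransferase, was even across the libraries. It had 8.90, 8.70 and 12.1 CPM per kb with Dam-Sd, 6.63, 10.7 and 10.1 with Yki-Dam and 11.7, 10.3 and 10.7 with Dam-Jra, against 8.61 to 12.9 with Dam, with log2 values of −0.08, −0.16 and −0.01 that did not pass. Set1 shares ends with its neighbour MED21.

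The fog gene was the one listed gene called higher in every fusion with TMM scaling, while under library-size scaling alone its values were −0.055, 0.15 and 0.070 and did not pass. Its product, folded gastrulation, is a secreted ligand that drives apical constriction in the embryo. The fog window (X:22824317-22855194) had 13, 10.5 and 6.52 CPM per kb in Dam-Sd, against 5.91, 4.96 and 3.42 in Dam of Set 1, a 2.10-fold rise (log2 1.07 ± 0.23, adjusted p = 0.000518). It had 11, 11.9 and 11.8 in Yki-Dam, against 7.10, 5.28 and 5.50 in Dam of Set 2 (log2 0.96 ± 0.23, adjusted p = 0.00254). In Dam-Jra it had 13.4, 12 and 10.8, against 3.42 to 8.46 (median 5.91) in Dam (log2 0.99 ± 0.18, adjusted p = 5.42e-05). No fusion library overlapped its Dam libraries. The window shares ends with mir-2491 and with CG42346, which behaved alike (1.03, 0.87 and 0.93). Another X gene, su(f), a cleavage factor subunit of mRNA 3′ end formation, was called higher in Dam-Jra (log2 0.36 ± 0.15, adjusted p = 0.0346) with overlapping libraries. Its window shares ends with that of CG17162, one of the highest in Dam-Jra. The su(f) call was lost against Set 3 alone (0.02) and without any 1 of the Dam-Jra libraries, replicate 3 of Dam Set 1, replicate 2 of Set 2 or replicate 1 or 2 of Set 3 (0.32 to 0.36), and it turned to −0.56 under library-size scaling alone.

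The classical 2L genes light and concertina were lower in Dam-Sd and Dam-Jra. Light (lt, 2L:22924795-22943135), which encodes a vesicle-trafficking protein of the HOPS complex, had 0.849, 1.44 and 1.77 CPM per kb in Dam-Sd, against 2.29, 2.86 and 3.72 in Dam of Set 1, a 2.16-fold fall (log2 −1.11 ± 0.28, adjusted p = 0.00216). In Dam-Jra it had 1.35, 1.39 and 1.28, against 2.07 to 3.72 (median 2.46) in Dam (log2 −1.05 ± 0.24, adjusted p = 0.00078). The lt value of Yki-Dam was −0.63 and did not pass (adjusted p = 0.065). Concertina (cta, 2L:22981816-22992951), the G protein alpha subunit downstream of Fog, had log2 −1.10 ± 0.32 in Dam-Sd (adjusted p = 0.00579), −0.46 in Yki-Dam (adjusted p = 0.234) and −1.05 ± 0.29 in Dam-Jra (adjusted p = 0.00301). The cta call was lost in Dam-Sd without the flanks (−0.60) and in Dam-Jra against Set 3 alone (−0.74). Cht10, a chitinase gene of 2L matched through its synonym Cht3, had 0.22 and 0.16 in Dam-Sd and Yki-Dam without passing, which turned to −0.89 (adjusted p = 0.000696) and −0.66 (adjusted p = 0.0101) under library-size scaling alone. Its lower call in Dam-Jra (−0.45 ± 0.19, adjusted p = 0.0386) was lost in 11 of 21 alternatives, among them without flanks (−0.34), with DESeq2 (−0.40) and without Dam-Jra replicate 2 or 3, replicate 3 of Dam Set 1, replicate 2 or 3 of Set 2 or replicate 1 or 2 of Set 3 (−0.44 to −0.40).

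The listed genes with the lowest values in Dam-Jra lay on 3L and 3R, arms that also held RpL15 and Set1, which were not called lower. The cohesin subunit gene vtd (3L:27136525-27157999) fell in every fusion. It had 0.782, 1.33 and 2.58 CPM per kb in Dam-Sd, against 3.28, 3.4 and 4.03 in Dam of Set 1 (log2 −1.17 ± 0.29, adjusted p = 0.00171), and 1.04, 1.57 and 1.64 in Yki-Dam, against 1.78, 3.36 and 3.05 in Dam of Set 2 (−0.94 ± 0.29, adjusted p = 0.0142). It had 0.812, 0.794 and 0.762 in Dam-Jra, against 1.78 to 4.03 (median 3.36) in Dam (−2.04 ± 0.28, adjusted p = 2.23e-06). The Yki-Dam call of vtd was lost without Dam replicate 2 of Set 2 (−0.76).

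The RNA helicase gene Dbp80 (3L:27279316-27422159) fell in Dam-Sd (−1.15 ± 0.32, adjusted p = 0.00469, with overlapping libraries) and in Dam-Jra (−2.15 ± 0.31, adjusted p = 4.18e-06), and l(3)80Fj did so too (−1.37 ± 0.31 and −2.35 ± 0.30, adjusted p = 0.00083 and 1.1e-06). Snap25, a SNARE protein gene of synaptic vesicle release, fell in Dam-Jra (−1.69 ± 0.32, adjusted p = 0.000124), as did l(3)80Fg (−1.73 ± 0.35, adjusted p = 0.000177). AGO3, a Piwi-family gene of the germline piRNA pathway, fell by less (−0.56 ± 0.20, adjusted p = 0.0199) and lost its call against Set 3 alone (−0.34, adjusted p = 0.257) and without Dam-Jra replicate 2 (−0.55) or 3 (−0.61). In Dam-Sd and Yki-Dam none of these 3 passed, and AGO3 had a positive Dam-Sd value of 0.30 that became −0.75 and was called under library-size scaling alone.

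On 3R the genes are among the longest of the fly. Myo81F, an unconventional myosin gene, spans 3R:567076-2532932, and its window held 12050 of the 24840 pericentric ends of the arm. It had 0.0816, 0.323 and 0.437 CPM per kb in Dam-Sd, against 0.120, 0.404 and 0.152 in Dam of Set 1, and 0.272, 0.399 and 0.456 in Yki-Dam, against 0.472, 0.721 and 0.689 in Dam of Set 2. Neither passed (log2 0.32 and −0.74, adjusted p = 0.546 and 0.172). In Dam-Jra it had 0.0800, 0.0959 and 0.0723, against 0.120 to 0.721 (median 0.211) in Dam (−1.81 ± 0.40, adjusted p = 0.000507), and −1.08 against Set 3 alone (adjusted p = 0.0503). Replicate 1 of Dam-Sd was low here, and Dam of Set 2 was high.

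Parp1 (3R:3461351-3587054), the poly(ADP-ribose) polymerase of chromatin decondensation and repair, had 0.163, 0.155 and 0.148 CPM per kb in Dam-Jra, against 0.588 to 1.71 (median 0.865) in Dam, a 5.86-fold fall (log2 −2.55 ± 0.38, adjusted p = 5.91e-06). It did not pass in Dam-Sd or Yki-Dam (−0.73 and −0.83, adjusted p = 0.0961 and 0.0683). Spok, a cytochrome P450 gene of ecdysone synthesis in the prothoracic gland, had 0.0715, 0.0331 and 0.0317 in Dam-Jra, against 0.239 to 1.43 (median 0.404) in Dam (−3.61 ± 0.68, adjusted p = 0.000101), and 0.23 and −0.75 in Dam-Sd and Yki-Dam without passing. Pzl, a mechanosensitive channel gene of the Piezo family, fell in Dam-Jra (−2.27 ± 0.39, adjusted p = 3.7e-05). The short gene Alg-2 was called lower in Dam-Sd (−0.81 ± 0.30, adjusted p = 0.0278) and had −0.26 and −0.57 in Yki-Dam and Dam-Jra without passing. Its Dam-Sd call was lost in 7 of 15 alternatives, among them DESeq2 (−0.66) and leaving out Dam-Sd replicate 1 or 2 or Dam replicate 1 or 3 of Set 1 (−0.79 to −0.70).

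**Figure D5:**
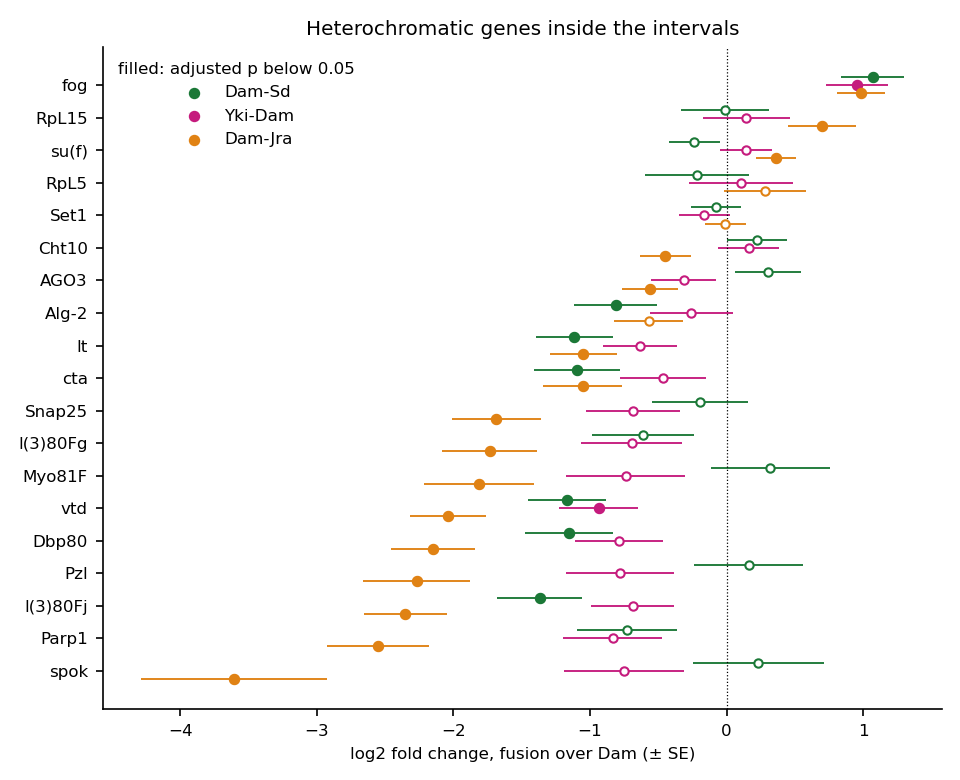
Log2 fold change ± SE over Dam for the 19 listed heterochromatic genes inside the intervals, ordered by the Dam-Jra value, with Dam-Sd, Yki-Dam and Dam-Jra from top to bottom within each gene and filled points for edgeR adjusted p below 0.05. With TMM scaling fog is filled to the right of 0 in all 3 fusions (−0.055 in Dam-Sd under library-size scaling alone, not passing), and vtd is filled to the left of 0 in all 3.

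Among well-covered windows with separated libraries, a few genes of 2L and X were higher in the fusions. CG31601 (2L:22040727-22043877), which shares ends with Grl40a, gained most in Dam-Sd. It had 29.6, 39.1 and 18.9 CPM per kb in Dam-Sd, against 4.96, 5.47 and 3.92 in Dam of Set 1, a 6.13-fold rise (log2 2.62 ± 0.24, adjusted p = 1.02e-07), and rose 2.54-fold in Yki-Dam (1.35 ± 0.23, adjusted p = 0.000156). Next in Dam-Sd came CG12567 (1.45 ± 0.38, adjusted p = 0.00318), which shares ends with mir-2490, CG6675 (1.22 ± 0.17, adjusted p = 5.27e-06), which shares ends with CG10834, and fog. In Yki-Dam CG6675 (0.92 ± 0.18, adjusted p = 0.00041) and CG42346 (0.87 ± 0.22, adjusted p = 0.00351) followed. The CG42346 window shares ends with fog, mir-2491 and CG34334. Under library-size scaling alone CG31601 kept its rise in both, and CG6675 (0.14 and 0.11), CG12567 (0.29) and CG42346 (0.06) did not pass.

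In Dam-Jra the 4 highest windows were neighbours on X that share ends, CG17168 (X:23082738-23084576, 2.68 ± 0.14, adjusted p = 5.62e-12), CG17169 (2.61 ± 0.13, adjusted p = 1.46e-12), CG17159 (1.89 ± 0.12) and CG17162 (1.87 ± 0.12). Their windows also reach CG17163, CG17167 or su(f). CG17169 had 87.9, 87.9 and 82.2 CPM per kb in Dam-Jra, against 8.68 to 20.9 (median 13.1) in Dam. In Yki-Dam CG17169 was called lower, with 7.74, 6.11 and 6.31 CPM per kb, against 12.2, 8.68 and 11.9 in Dam of Set 2 (−0.71 ± 0.20, adjusted p = 0.00736), and in Dam-Sd it had −0.28 and did not pass. Without the flanks, which reach into CG17169, CG17168 had 0.28 in Dam-Jra and did not pass.

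The lowest such windows in Dam-Sd were alpha-Cat, the adherens junction gene alpha-Catenin (3L:23318646-23338100, −1.37 ± 0.34, adjusted p = 0.002), whose window shares ends with ND-MLRQ and mir-4942, l(3)80Fj, and stnA and stnB, which form 1 bicistronic locus of synaptic vesicle recycling on X and cannot be told apart (−1.26 ± 0.25, adjusted p = 0.000244). Alpha-Cat had 1.13, 2.01 and 2.54 CPM per kb in Dam-Sd, against 4.10, 4.75 and 6.01 in Dam of Set 1. In Yki-Dam the lowest were stnA and stnB (−1.11 ± 0.24, adjusted p = 0.00113), vtd and the acetylcholine receptor gene nAChRalpha4 (−0.81 ± 0.29, adjusted p = 0.0309), which lost its call without replicate 2 or 3 of Dam Set 2 (−0.66 and −0.78) or Yki-Dam replicate 1 (−0.76). In Dam-Jra they were Parp1, l(3)80Fj, Pzl and lovit, which encodes a vesicular transporter (3L:25236940-25670980, −2.22 ± 0.37, adjusted p = 2.65e-05).

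The authors' deposited peak lists held few pericentric peaks. In the authors' deposited peak list of Dam-Sd 16 of 5057 peaks lay inside the intervals, in that of Yki-Dam 11 of 3878, and in that of Dam-Jra 17 of 4568. Per 1000 ends these deposited peaks numbered 0.225, 0.155 and 0.239, against 7.75, 5.93 and 6.99 in the rest of the same arms. Per 100 coding genes the authors' deposited peaks numbered 15.5, 10.7 and 16.5, against 37.2, 28.4 and 33.5. Folds and p-values of peaks are the authors' own, and in the authors' deposited table the pericentric peaks had median log2 folds of 1.67, 1.73 and 1.94, against 1.71, 1.86 and 1.88 in the rest. No test was made of these counts.

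Pericentric peaks were spread over the arms unevenly. The deposited Dam-Sd list had 9 on 2L, 3 on 3L, 1 on 3R and 3 on X, that of Yki-Dam 3, 1, 1 and 6, and that of Dam-Jra 5, 4, 1 and 7. In each deposited list 6 pericentric peaks overlapped a peak of another fusion, which is 37.5% of the Dam-Sd, 54.5% of the Yki-Dam and 35.3% of the Dam-Jra peaks inside, against 68.5, 88.9 and 67.8% of the peaks in the rest. A peak in CG31601 (2L:22040879-22041572) overlapped peaks of the other two deposited lists. A peak in the chitin deacetylase gene Cda4 (X:22632792-22633907) was in the deposited Dam-Sd and Yki-Dam lists, and the deposited Dam-Jra list held a shorter one (X:22633417-22633907) within it. At the CG31601 peak the reads were 75.5, 115 and 79.3 CPM (reads per 1e6 of the library, unscaled) with Dam-Sd, 57.4, 43.3 and 52.4 with Yki-Dam and 35.7, 32.4 and 37.5 with Dam-Jra, against 27.0, 31.3 and 21.8 in Dam of Set 1, 18.9, 24.3 and 20.2 in Set 2 and 16, 17.7 and 27.9 in Set 3.

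The only 3R peak of the deposited Dam-Jra list lay within Myo81F, at 3R:1366078-1366626, where a noncoding gene, lncRNA:CR46123, is annotated. Its reads were 32.1, 49.2 and 30.7 CPM in Dam-Jra, against 2.52, 1.57 and 2.63 in Dam of Set 1, 11.4, 19.8 and 24.8 in Set 2 and 16.6, 16.7 and 23.9 in Set 3. Dam-Sd held 0, 0.385 and 0 CPM at the same place, and Yki-Dam 8.45, 13 and 17.8. Dam of Set 1 lay below the other two Dam sets here without overlap. This peak sits in the 500 kb step where Dam-Jra was highest on 3R after the step at the edge. The single 3R peak of the deposited Dam-Sd list (3R:3735386-3736323) lay in Tim17b, a gene of the mitochondrial import machinery, as did that of the Yki-Dam list. Its unscaled reads were 9.60, 12.7 and 20.6 CPM in Dam-Sd and overlapped the 8.65, 12.8 and 12.6 CPM in Dam of Set 1. The TMM factor of ends was lower in every Dam-Sd library than in every Dam library of Set 1. TMM scaling therefore raises Dam-Sd relative to Dam. This peak was not assessed after TMM scaling, so the overlap is stated for unscaled reads only.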

How the data were processed

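DNA of eye-antennal discs was cut at methylated GATC sites with DpnI, ligated to adaptors, cut with DpnII, amplified by PCR and sequenced, per the labels' protocols. The authors deposited a table of read counts per GATC end for 18 libraries of 21.4 to 41.0 M (1e6) reads. Subread, featureCounts, edgeR, bedtools and the dm6 build are named in the submitters' processing notes without versions or settings; the handling of multi-mapping reads is not given in the sources used here. In addition, 3 peak lists were deposited, each with the authors' log2 value of fusion over Dam and a p-value per peak. Which Dam libraries these rest on is not stated in the labels or headers, and further columns were not used.

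Counts were analysed here. For each library, reads per end in the intervals were divided by reads per end in the rest of the same arms, and the log2 ratios were compared with exact two-sided permutation tests over libraries (Python 3.11.15, numpy 2.4.6, pandas 2.3.3, scipy 1.17.1). Ends, and gene windows summed over all ends within a RefSeq gene and 1 kb on both sides, were tested with edgeR 4.0.16 in R 4.3.3. This used the quasi-likelihood test, TMM scaling, filterByExpr with a minimum count of 10, all 18 libraries as 6 groups with 12 residual degrees of freedom, and Benjamini-Hochberg adjusted p below 0.05 over all tested features. Alternatives included DESeq2 1.42.0. Dam-Sd was set against Dam of Set 1, Yki-Dam against Set 2 and Dam-Jra against the mean of the 3 sets. The edgeR fit was tested on simulated counts of ends and of windows, for Dam-Sd against Dam of Set 1 only. DESeq2 and the comparisons of Yki-Dam and Dam-Jra were not simulated. Genes were assigned by position from the RefSeq table of the same build, so no gene sequence or strand was used, and the gene identifiers of the peak lists were not matched.

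Levels of windows are TMM-scaled CPM per kb of window. Genes named are those of a list of 27 heterochromatic genes, and in each direction up to 4 windows of largest change among called windows with separated libraries and enough reads. Where a named window shares ends with another gene, the text says so. The intervals, members and lists were chosen with earlier results of these data known. Equal replicate numbers deviated together over gene windows in Dam-Sd and Dam of Set 1 (correlations 0.557, 0.373 and 0.371) and in Yki-Dam and Dam of Set 2 (0.616, 0.385 and 0.310), so these numbers were taken to pair the libraries. Dam-Jra was not paired with Set 3 (0.0993, −0.0926 and 0.0646).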

Additional observations from a re-analysis of the deposited data

Results flagged for a closer look

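The fusion minus Dam difference of Dam-Jra was not the same at all pericentric ends, by exact permutation tests of the difference between arms over 220 splits of 3 Dam-Jra and 9 Dam libraries, adjusted over 18 pairs. The 2L value exceeded that of 3L by 0.89 (adjusted p = 0.0205) and that of 3R by 1.28 (adjusted p = 0.0491). The difference 2L minus X was −0.56, 3L minus X −1.44 and 3R minus X −1.84 on the log2 scale (adjusted p = 0.0205 each). The 3 Dam sets differed among themselves, and the permutation treats their libraries as exchangeable. Against Set 1, Set 2 and Set 3 alone, 2L minus 3L was 1.01, 1.22 and 0.44, 2L minus 3R 1.12, 2.02 and 0.70, 2L minus X −0.67, −0.52 and −0.48, 3L minus X −1.68, −1.73 and −0.92, and 3R minus X −1.80, −2.54 and −1.18, each with exact permutation p = 0.10, the smallest possible. In Dam-Sd and Yki-Dam no pair of arms passed, with adjusted p of 0.129 to 1, and 3 against 3 libraries cannot go below 0.10 before adjustment. X and 2L held more coding genes per Mb (23.4 and 24.5) than 3L (7.05) and 3R (2.00), and fewer ends without a read than 3L and 3R, and the part of either in the differences was not tested.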

How the results depend on the processing

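The relative level in Dam alone stayed below the rest under every alternative run, with −3.34 to −2.09 over other units, ends and edges. The fusions stayed below Dam throughout. Leaving out each library in turn gave −1.81 to −1.04 for Dam-Sd, −1.70 to −1.30 for Yki-Dam, −1.93 to −1.76 for Dam-Jra and −2.76 to −2.60 for Dam alone. The median of 100 kb bins gave −1.05 for Dam-Sd with exact permutation p = 0.50. With the replicate block the values were −1.44, −1.50 and, for Dam-Jra against Set 3, −1.38, each with an exact sign-flip permutation p of 0.25, the smallest possible with 3 pairs. Dam-Jra lost its call against Set 3 alone (−1.38), Set 1 alone (−1.89) and, with Set 3 alone as control, with Dam-level classes weighted (−1.30). Comparisons of 3 against 3 cannot reach a lower p than 0.10. Against all 9 Dam libraries Dam-Sd (−1.41) and Yki-Dam (−1.04) passed, in a test that treats the Dam sets as exchangeable although they differed. Counts of called ends moved most. At adjusted p below 0.01 they were 791, 236 and 2597 for Dam-Sd, Yki-Dam and Dam-Jra, and under library-size scaling alone 6033, 6116 and 12557. For Dam-Sd at adjusted p below 0.01, 4.39% of the tested pericentric ends were called, against 15.4% of all tested ends. The counts of called ends that follow are given without their shares over all ends. Yki-Dam had 252 from its own libraries only and 2418 against the mean of the 3 Dam sets, and Dam-Jra 2673 against Set 3 and 3595 with the block. Without single libraries they were 1144 to 2488 for Dam-Sd, 486 to 1817 for Yki-Dam and 2899 to 8405 for Dam-Jra. Called windows were 87 for Dam-Sd and 87 for Yki-Dam with library size only, where 79.7 and 71.6% of all windows were called. For Yki-Dam they were 48 with the block, where 55.7% of all windows were called. The window counts that follow are given without their shares over all windows, so they are not read against the background. Yki-Dam had 9 called windows at adjusted p below 0.01 and 13 without flanks. Without single libraries called windows were 25 to 35 for Dam-Sd, 12 to 33 for Yki-Dam and 66 to 81 for Dam-Jra. DESeq2 called 28, 22 and 75 windows. Among deposited peaks with p at or below the median of their list, 3, 3 and 6 were pericentric. Of 74 gene and fusion pairs followed over 1254 alternatives, 10 values turned sign with a call in the main fit or in the alternative. With library size only these were AGO3 (−0.75), Cht10 (−0.89) and fog (−0.055) in Dam-Sd, Cht10 (−0.66), RpL15 (−0.67) and su(f) (−0.67) in Yki-Dam, and RpL15 (−0.22), RpL5 (−0.64) and su(f) (−0.56) in Dam-Jra. RpL5 in Dam-Jra also turned, to −0.56, with the replicate block. Turns of sign without a call in either fit were not counted. Without single libraries, for example, Pzl ran from −0.34 to 0.84 and spok from −0.60 to 0.84 in Dam-Sd. Where no construction of an alternative shows it, the cause was not tested. Depth limited single ends, of which 25.4% could be tested.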

Other observations

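In the deposited Dam-Sd list, the pericentric peak with the largest fold, a log2 value of 4.07 in the authors' deposited table, lay at 2L:22844397-22844563 within 1 kb of CG17715 and lncRNA:CR43266. Its unscaled reads were 4.39, 1.16 and 2.97 CPM in Dam-Sd, against 3.02, 1.41 and 0.196 CPM in Dam of Set 1, with overlap. The libraries of Yki-Dam, Dam-Jra, Dam of Set 2 and Dam of Set 3 held no read there.

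Replicate 1 was the lowest library of both Yki-Dam and Dam of Set 2 at 5 of the 8 pericentric sites with the most reads and the highest of both at 1, in fog and CG42346 (X:22855162-22855165), with 76.3, 34.7 and 38.7 CPM in Yki-Dam, against 79.3, 37.8 and 37.2 CPM in Dam of Set 2. At the deposited Dam-Sd peak in FASN3 (3L:25759861-25760197) the reads were 1.08, 24.3 and 35.5 CPM in Yki-Dam, against 0.667, 18.8 and 18.1 CPM in Dam of Set 2. At the deposited Dam-Sd peak in CG42748 (2L:22134903-22135655) they were 11, 66.0 and 85.1 CPM in Yki-Dam, against 6.89, 76.1 and 81.3 CPM in Dam of Set 2. Without Yki-Dam replicate 1 the pericentric difference of Yki-Dam was −1.30, and without Dam replicate 1 of Set 2 it was −1.70.

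Dam-Jra had the most reads at the deposited peak in CG17169 (X:23084650-23085431), beside CG17168, with 178, 176 and 168 CPM, against 27.6 to 66.8 CPM in the 9 Dam libraries. Dam-Sd held 14.5, 13.5 and 27.9 CPM there, against 56.6, 47.8 and 47.4 CPM in Dam of Set 1. Yki-Dam held 16.3, 10.6 and 10.9 CPM, against 41.2, 27.6 and 44.7 CPM in Dam of Set 2. In these unscaled reads both lay below their Dam libraries without overlap, and the peak was not assessed after TMM scaling. With TMM scaling the CG17169 window was called lower in Yki-Dam but did not pass in Dam-Sd.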
